A study of Rattus norvegicus with 32 samples.

Results

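The genes examined here encode the coat, adaptor and scission machinery of clathrin-mediated transport, and they were followed in rat liver sinusoidal endothelial cells (LSECs), the fenestrated cells that line the liver sinusoids. Members were chosen by a rule on the symbol that uses no measured value, though earlier results of these data were known. They are the heavy and light clathrin chains, the subunits of the adaptor complexes AP-1 to AP-5, dynamins 1 to 3, and 12 named endocytic adaptor and accessory genes. The rule found 45 of the 32623 genes in the count tables. RNA sequencing had been done on LSECs from male rats in 2 experiments. In the carbon tetrachloride (CCl4) experiment, the groups were healthy LSECs (n = 6), acute injury after 2 weeks of CCl4 (n = 5), fibrosis after 6 weeks (n = 5) and cirrhosis after 12 to 14 weeks (n = 6). CCl4 was inhaled and the drinking water held phenobarbital, and the sources used here do not say whether the healthy rats drank it too. In the thioacetamide (TAA) experiment, the libraries are labelled control (n = 5) and TAA control (n = 5), and the labels do not settle which of these groups received TAA. The groups are therefore called "labelled control" and "labelled TAA control", and no direction of disease is given for them. The labels name Wistar Han rats throughout, whereas the study's methods name Sprague-Dawley rats for the TAA experiment. No allele or transgene is named for any group, and each library is counted as 1 replicate. Labelled TAA control 14 and 15 had unusually similar counts. Their chi-square per degree of freedom was 2.96, while library pairs within groups otherwise gave at least 23.6. Whether these libraries come from separate rats was not tested, and n = 5 for that group assumes it.

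Clathrin is built of triskelia of 3 heavy chains, encoded by Cltc, with light chains from Clta or Cltb, and it assembles into a cage around budding membrane. It does not bind membrane itself. Adaptors link it to lipids and cargo: AP-2 works at the plasma membrane and AP-1 at the trans-Golgi network and endosomes, each with 2 large, 1 medium and 1 small subunit, while AP-3, AP-4 and AP-5 serve other endosomal and Golgi routes. Dynamins are GTPases that cut the neck of the bud. LSECs are among the most active scavenging endothelia known and clear hyaluronan, modified lipoproteins and other waste through receptors such as the stabilins (Stab1, Stab2) and the mannose receptor (Mrc1), which are taken up through clathrin-coated pits.

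Of the 45 members, 43 had an entry in the RefSeq table of rat promoter sequences (assembly GRCr8). The 250 bases before the annotated start are printed for 4 genes on which the comparisons turn: Ap1b1 and Ap2s1, with the largest falls of the AP-1 and AP-2 subunits, Ap2b1, the AP-2 subunit that was called in no comparison, and Picalm, which rose. They lie at chr14:84093322-84093571 (plus strand), chr1:86545351-86545600 (plus strand), chr10:68600473-68600722 (plus strand) and chr1:153469047-153469296 (plus strand), and are written 5′ to 3′ on the gene's own strand. Capitals mark the motifs found in a search of both strands. The GC box was searched as the letters GGGCGG, known to bind factors of the Sp family. The TATA box was searched as the letters TATAAA and the E-box as the palindrome with the letters CACGTG. The cyclic AMP response element was searched as TGACGTCA and the binding site of the AP-1 transcription factor, which shares only its name with the adaptor, as TGACTCA. The CCAAT box was searched by the letters of its name. Where matches overlapped, all their letters are in capitals.
Ap1b1: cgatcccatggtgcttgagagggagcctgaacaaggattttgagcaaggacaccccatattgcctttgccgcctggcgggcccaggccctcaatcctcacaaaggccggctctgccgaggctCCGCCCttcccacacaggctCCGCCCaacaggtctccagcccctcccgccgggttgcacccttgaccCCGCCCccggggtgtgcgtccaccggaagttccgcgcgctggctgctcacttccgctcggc
Ap2s1: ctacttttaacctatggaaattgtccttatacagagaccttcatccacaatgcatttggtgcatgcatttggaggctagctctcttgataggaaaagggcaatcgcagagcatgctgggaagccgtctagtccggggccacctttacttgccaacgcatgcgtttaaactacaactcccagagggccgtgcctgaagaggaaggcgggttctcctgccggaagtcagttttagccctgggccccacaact
Ap2b1: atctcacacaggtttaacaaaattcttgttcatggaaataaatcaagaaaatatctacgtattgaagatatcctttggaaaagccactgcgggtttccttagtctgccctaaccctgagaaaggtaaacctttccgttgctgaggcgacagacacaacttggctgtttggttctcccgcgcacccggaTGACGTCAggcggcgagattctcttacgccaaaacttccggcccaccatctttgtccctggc
Picalm: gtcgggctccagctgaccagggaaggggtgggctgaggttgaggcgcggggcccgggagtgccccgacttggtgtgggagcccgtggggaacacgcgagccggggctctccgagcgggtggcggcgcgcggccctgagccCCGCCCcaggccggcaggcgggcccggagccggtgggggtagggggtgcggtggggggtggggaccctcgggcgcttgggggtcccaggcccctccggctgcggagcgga
The Ap1b1 window held 3 GC boxes, that of Picalm 1, that of Ap2b1 a single cyclic AMP response element, and that of Ap2s1 none of the 6 motifs. GC boxes were found in 27 of the 43 member windows (62.8%), against 30.5% of all 33469 windows of the same length. Each member counts once, whereas a gene with several entries counts more than once among all windows. No member window held a TATA box, against 12.9% of all windows, and the median GC content was 62.4% in members and 51.2% in all. CCAAT boxes were in 30.2% of member windows and in 34% of all. The printed windows differed in GC content, at 67.2% for Ap1b1, 51.6% for Ap2s1, 47.6% for Ap2b1 and 79.2% for Picalm. A motif match is a description of letters, not of a bound site.

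The libraries held 25646531 to 46464289 estimated reads in genes. Values below are CPM (reads of a gene scaled to a fixed library size) after TMM scaling, which was done separately for the 2 experiments, so levels are compared within an experiment only. A gene was called higher or lower when the adjusted p from limma-voom was below 0.05 over all genes tested and the fold change was above 1.5. Healthy libraries were more spread than those of any other group: the median distance of a library to the others of its group was 0.826 to 1.1 on the log2 scale in healthy LSECs and 0.42 to 0.571 elsewhere. Healthy libraries 5 and 6 stood apart for several members, and leaving both out, an alternative chosen after seeing the data, is given below where it changes a call of a gene described in full. The summed level of 11 LSEC markers was 16618 to 31756 CPM in healthy libraries, 2483 to 3128 in acute injury, 1774 to 2794 in fibrosis and 14848 to 19186 in cirrhosis, so the LSEC markers were present in all groups and were far lower in acute injury and fibrosis. Macrophage markers summed to 409 to 4452, 88.6 to 257, 40 to 252 and 1015 to 3643 CPM in the same order of groups, hepatocyte markers to 1310 to 27695, 146 to 921, 1311 to 5165 and 2988 to 14495, and stellate cell markers to 329 to 859, 1321 to 2138, 1367 to 1850 and 667 to 2066. The stellate sum went against most of its members in acute injury, where 6 of 10 tested were called lower and only Reln higher (log2 fold change 3.37); in fibrosis 4 were called higher and 4 lower. In bulk RNA, fewer cells of a type and less RNA per cell cannot be told apart, and the part of these marker changes in the results on endocytosis genes was not tested.

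Coat and adaptor genes moved in both directions in injured LSECs, as genes did at large. Within AP-1 and AP-3 there were calls both ways at each stage. In AP-2 no gene was called higher, and clathrin and dynamin calls in acute injury and fibrosis were all lower. Whether subunits of a complex went apart more than genes at large was not tested. In acute injury, 30 of the 41 members tested were called against healthy LSECs, 12 higher and 18 lower, a share of 73.2% beside 73.4% of all genes tested (35.5% higher, 37.9% lower). On the scaling of that comparison alone, as in the like counts below, the groups did not overlap for 27 of the 41, beside 60.4% of all genes. In fibrosis, 31 of 41 were called, 12 higher and 19 lower, beside 70.2% of all genes (35.3% higher, 34.9% lower), and the groups did not overlap for 27, beside 59% of all genes. In cirrhosis, 27 of 43 were called, 10 higher and 17 lower, beside 51.8% of all genes (27.1% higher, 24.7% lower), and the groups did not overlap for 15, beside 27.2%. The share of members called was thus close to the background in acute injury and fibrosis. The median log2 fold change of the members was -0.37 in acute injury, -0.48 in fibrosis and -0.20 in cirrhosis, beside -0.09, -0.03 and 0.07 over all genes. Scaling to library size without TMM moved the median of all genes to 0.32, 0.37 and 0.42, and the calls among members then split 15 higher and 14 lower, 15 and 12, and 14 and 9. With upper-quartile scaling the cirrhosis split was 13 and 13. No called member changed sign under these scalings or under DESeq2 size factors. The 3 comparisons share the same healthy libraries.

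**Figure D1:**
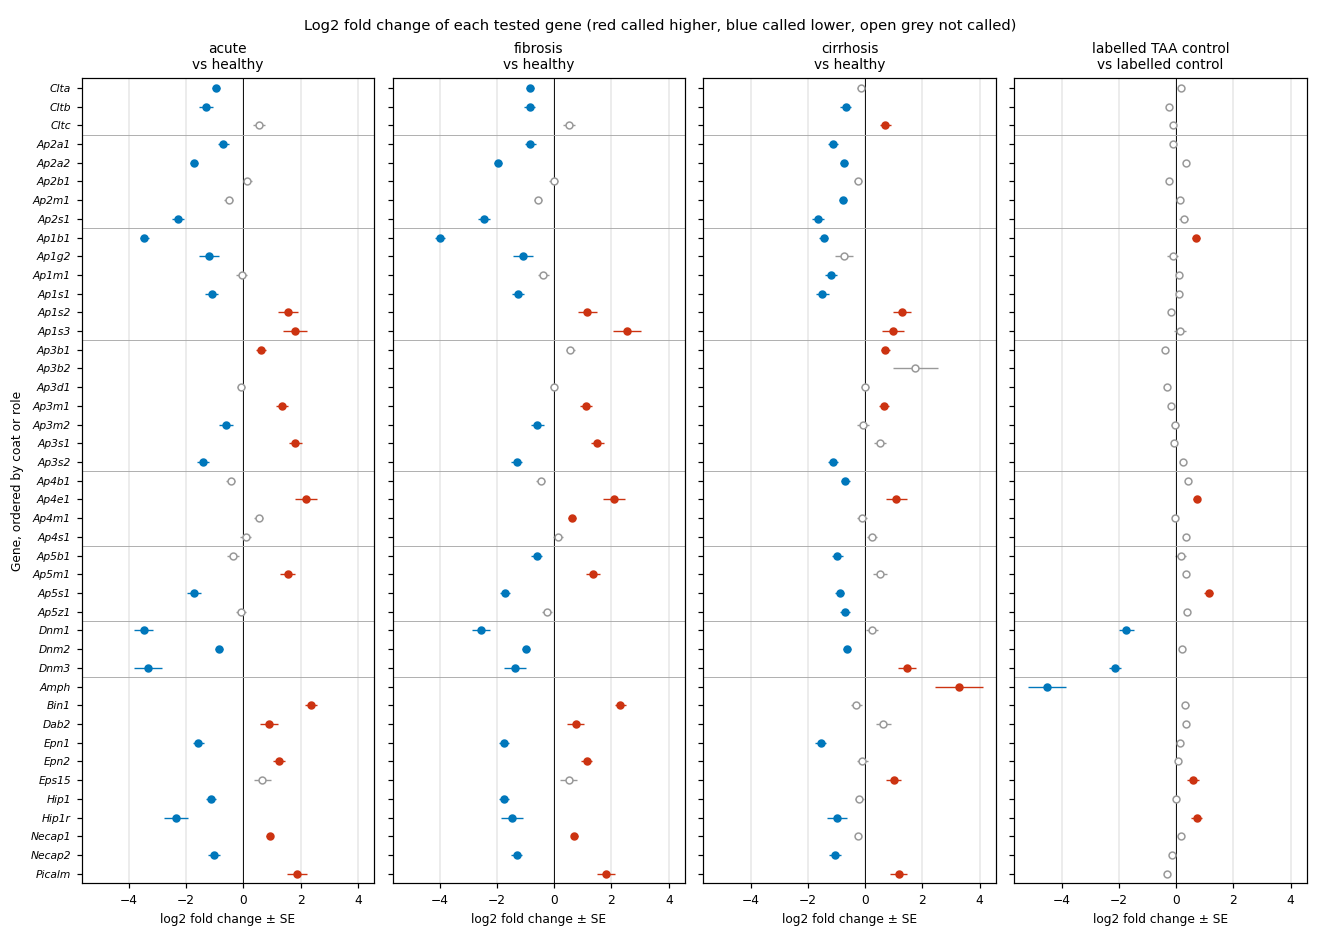
Log2 fold change (± SE) of each tested member in the 3 comparisons with healthy LSECs and between the TAA-experiment groups, ordered by coat or role, with red for called higher, blue for called lower and open grey for not called. Ap1b1 lies furthest to the left among the coat subunits in acute injury (-3.46) and fibrosis (-4.00), while Picalm and Bin1 lie to the right in both.

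The clathrin light chains fell in acute injury and fibrosis while the heavy chain did not. Clta, the light chain a gene, read 252 to 373 CPM in the 6 healthy libraries (median 293), 158, 151, 145, 141 and 173 CPM in acute injury, and 160, 165, 176, 155 and 155 CPM in fibrosis. No injured library reached the lowest healthy library. Its log2 fold change was -0.96 ± 0.14 (SE, adjusted p = 4.29e-05) in acute injury and -0.84 ± 0.13 (adjusted p = 6.97e-05) in fibrosis. In cirrhosis Clta read 242 to 329 CPM (median 263) and was not called, with a log2 fold change of -0.16 ± 0.14. Cltb, the light chain b gene, read 41.7 to 90.8 CPM in healthy LSECs (median 74.5), and 31.3, 34.8, 23.6, 17.6 and 33.6 CPM in acute injury. It was called lower at all 3 stages, by 1.31 ± 0.24, 0.86 ± 0.20 and 0.68 ± 0.19 on the log2 scale, with the groups overlapping in fibrosis and cirrhosis. With library-size scaling, Clta in acute injury and fibrosis and Cltb in fibrosis and cirrhosis kept their sign but were no longer called. The cirrhosis call of Cltb was also lost with upper-quartile scaling (-0.54) and with a CPM filter (-0.58).

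In the main fits, Cltc, the heavy chain gene, was the only clathrin gene called higher against healthy LSECs, and at the cirrhosis stage only. It read 360, 410, 456 and 514 CPM in healthy libraries 4, 1, 2 and 3, and 728 and 850 in healthy libraries 5 and 6. All other groups of the CCl4 experiment were tight: 698.5 to 796 CPM in acute injury, 703 to 746 in fibrosis and 759 to 928 in cirrhosis. The log2 fold change was 0.55 ± 0.21 in acute injury and 0.53 ± 0.21 in fibrosis, both below the fold threshold, and 0.71 ± 0.19 in cirrhosis (adjusted p = 0.00712). Without healthy libraries 5 and 6 it was 0.94 in acute injury and 0.83 in fibrosis, and both were called, as they were with library-size scaling (0.96 and 0.92). Both were called also with library weights (0.84 and 0.80) and without healthy library 5 or 6 alone. The acute value was called also with DESeq2 size factors (0.61), no low-count filter (0.66) and the replicate block (0.91). The same held without healthy library 3 or acute library 4. Cirrhosis and fibrosis differed by 0.23 on the log2 scale, below the fold threshold. The log2 ratio of Cltc to Clta counts, a ratio chosen after its values were seen and therefore not tested, was 0.79 ± 0.48 (SD) in healthy LSECs, 2.30 ± 0.07 in acute injury, 2.16 ± 0.06 in fibrosis and 1.66 ± 0.22 in cirrhosis.

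**Figure D2:**
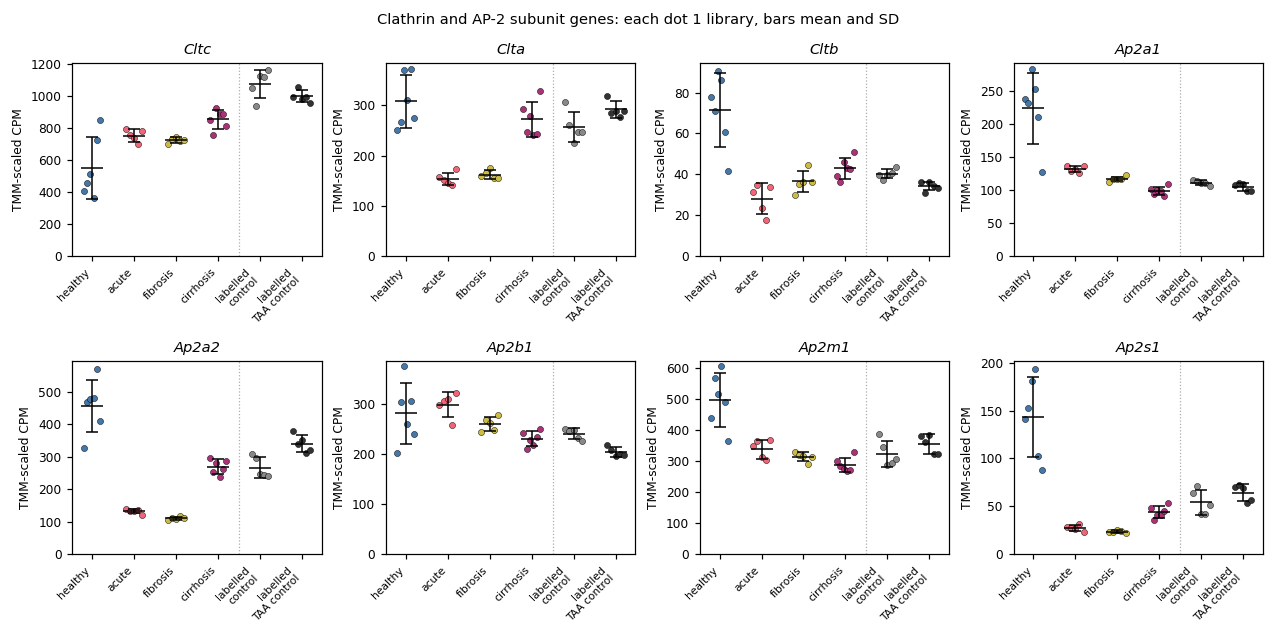
TMM-scaled CPM (linear axis from 0) of the clathrin and AP-2 genes in each library, with the mean and SD of each group; the dotted line parts the separately scaled experiments. Ap2s1 lies at 22 to 32 CPM in every acute and fibrosis library and at 87.6 CPM or more in every healthy library, while Ap2b1 overlaps between these groups.

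The subunits of AP-2, the adaptor of plasma membrane coated pits, did not move together. Ap2s1, the small sigma subunit that binds dileucine signals in cargo, fell hardest. It read 87.6 to 193 CPM in healthy LSECs (median 147), then 28.7, 27.8, 26.4, 32 and 23.3 CPM in acute injury and 23.7, 23.3, 25.3, 24.3 and 22 CPM in fibrosis. Every injured library was below every healthy library, and cirrhosis libraries, at 35.8 to 53.1 CPM (median 43.1), lay between. The log2 fold change was -2.28 ± 0.21 in acute injury (adjusted p = 1.2e-06), -2.47 ± 0.21 in fibrosis (adjusted p = 6.72e-07) and -1.64 ± 0.21 in cirrhosis (adjusted p = 0.000115).

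The alpha subunits of AP-2, which bind phosphoinositides and accessory proteins, both fell, in a different order by stage. Ap2a2 read 328 to 572 CPM in healthy LSECs (median 474), 121 to 139 CPM in acute injury, 106 to 117 CPM in fibrosis and 237 to 298 CPM in cirrhosis, with no overlap with the healthy group at any stage. Its log2 fold change was -1.73 ± 0.14, -1.96 ± 0.13 and -0.74 ± 0.14. Ap2a1 read 127 to 282 CPM in healthy LSECs (median 235), and healthy library 6, at 127 CPM, was the lowest by a wide gap. It read 125 to 136 CPM in acute injury, 112 to 122 CPM in fibrosis and 91.3 to 109 CPM in cirrhosis, and its log2 fold change was -0.69 ± 0.18, -0.83 ± 0.18 and -1.13 ± 0.18. By mean level, Ap2a2 was thus lowest in fibrosis and Ap2a1 in cirrhosis. The acute and fibrosis calls of Ap2a1 were lost with library-size scaling, as was the cirrhosis call of Ap2a2. The acute call of Ap2a1 was also lost without healthy library 3 (-0.57) or 4 (-0.58) and without the low-count filter (-0.58).

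Ap2m1, the mu subunit that binds tyrosine-based cargo signals, was called once against healthy LSECs, and Ap2b1, the beta subunit that binds clathrin, never. Ap2m1 read 364 to 605 CPM in healthy LSECs, 302 to 368 in acute injury, 291 to 329 in fibrosis and 267 to 329 in cirrhosis. It was called lower in cirrhosis, at -0.77 ± 0.15, and stood at -0.51 ± 0.15 and -0.58 ± 0.14 at the earlier stages, below the fold threshold with adjusted p of 0.00745 and 0.00205. The fibrosis value lay at the edge of the call: it was -0.67 and called without healthy libraries 5 and 6, and was called also with edgeR (-0.59) and without healthy library 1, 5 or 6 alone. A CPM filter (-0.59), library weights (-0.69) and 1 fit over 22 libraries (-0.65) gave the call as well. With library weights the acute value was called too (-0.61). The cirrhosis call was lost with library-size scaling (-0.42). Whether its cirrhosis change differed from the earlier ones was tested only against fibrosis, where the log2 difference was -0.13 ± 0.07 and not called. Ap2b1 read 203 to 376 CPM in healthy LSECs, 258 to 322 in acute injury, 244 to 277 in fibrosis and 210 to 251 in cirrhosis, and its log2 fold changes of 0.14 ± 0.16, -0.02 ± 0.15 and -0.25 ± 0.15 were not called. Over the complex, 3 of 5 AP-2 genes were called lower in acute injury, 3 in fibrosis and 4 in cirrhosis, and none higher, beside 37.9%, 34.9% and 24.7% of all genes called lower. With library-size scaling 2 of the 5 were called lower at each stage.

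AP-1 held the largest fall of any coat subunit, beside rises of some of its small subunits. Ap1b1, the beta subunit of AP-1, was at 1144 to 1949 CPM in healthy LSECs (median 1569), 125, 147, 126, 182 and 123 CPM in acute injury, and 92.5, 110, 108, 95.5 and 67.5 CPM in fibrosis. Every healthy library was above every injured library, and cirrhosis, at 453 to 689 CPM (median 551), lay between without touching either. The log2 fold change was -3.46 ± 0.16 (adjusted p = 5.25e-09) in acute injury, -4.00 ± 0.17 (adjusted p = 4.28e-09) in fibrosis and -1.45 ± 0.16 (adjusted p = 7.68e-05) in cirrhosis. All 3 calls held under every alternative run.

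The other AP-1 subunits differed in direction. Ap1s1, a small sigma subunit, was called lower at all 3 stages, by 1.11 ± 0.24, 1.25 ± 0.21 and 1.499 ± 0.222 on the log2 scale. Ap1s2, its X-linked paralog, was at 2.98 to 13.7 CPM in healthy LSECs (median 8.83), 18.9 to 22.9 CPM in acute injury, 14.5 to 17.4 CPM in fibrosis and 15.5 to 21.3 CPM in cirrhosis, so that no injured library overlapped the healthy range. Its log2 fold changes were 1.56 ± 0.34, 1.16 ± 0.34 and 1.29 ± 0.31, all called. The log2 ratio of Ap1s2 to Ap1s1, also chosen after its values were seen and not tested, was -3.43 ± 1.28 (SD) in healthy LSECs, -0.73 ± 0.45 in acute injury, -0.98 ± 0.20 in fibrosis and -0.61 ± 0.43 in cirrhosis. Ap1s3 was called higher at all stages but stayed at 2.27 CPM or less in every library. Ap1m1, a mu subunit, was called only in cirrhosis, at -1.20 ± 0.20. Ap1g2, a gamma subunit at 24 CPM or less, was called lower in acute injury and fibrosis, at -1.21 ± 0.35 and -1.09 ± 0.35, and Ap1m2, known from polarized epithelia, had at most 8 reads in any library and was not tested. The gene for the main gamma subunit was not analysed here, since no row carries the symbol.

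**Figure D3:**
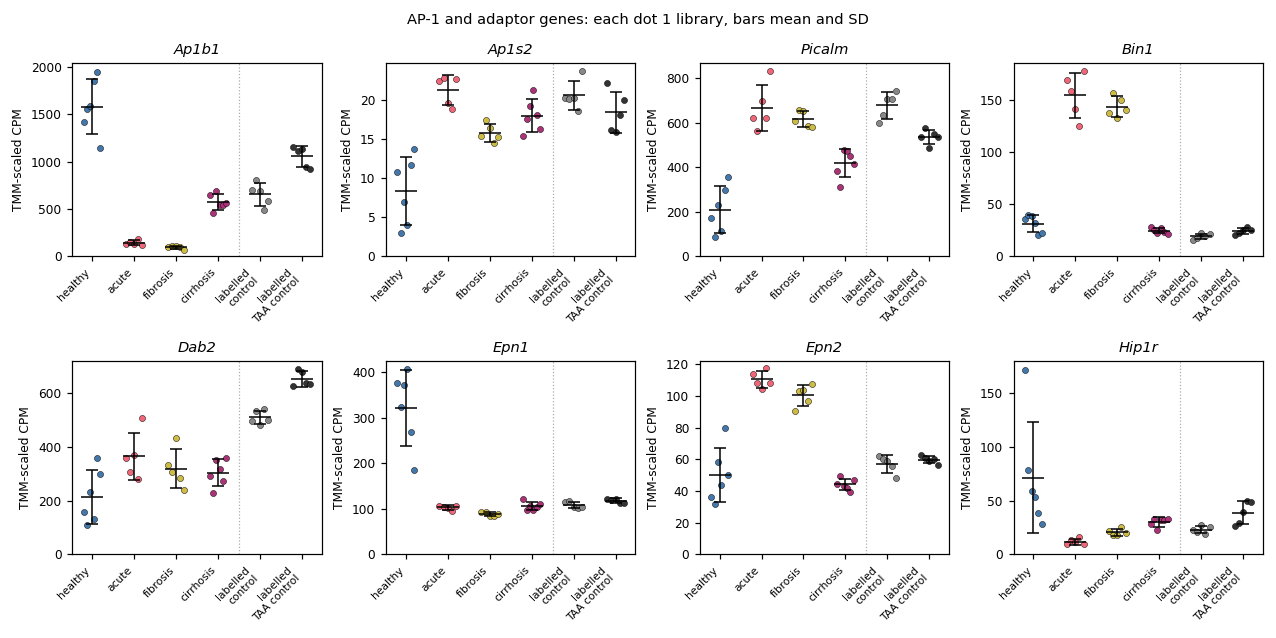
TMM-scaled CPM (linear axis from 0) of AP-1 and adaptor genes in each library, with the mean and SD of each group. Ap1b1 drops from 1144 CPM or more in healthy libraries to 182 or less in acute injury and fibrosis, whereas Bin1 stands at 125 CPM or more in the acute and fibrosis libraries and at 39 or less in every other library of the experiment.

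AP-3, AP-4 and AP-5, which sort cargo to lysosome-related organelles or between Golgi and endosomes and do not all use clathrin, had members moving each way. In AP-3, Ap3s1 rose from 3.46 to 7.99 CPM in healthy LSECs (median 5.39) to 16.7 to 19.9 CPM in acute injury and 13.7 to 14.9 CPM in fibrosis, with log2 fold changes of 1.82 ± 0.23 and 1.51 ± 0.22, and stood at 6.01 to 9.02 CPM in cirrhosis (0.53 ± 0.21, not called). Without healthy libraries 5 and 6 the cirrhosis value was 0.77 and was called, as it was with library-size scaling (0.89) and without healthy library 1, 5 or 6 or cirrhosis library 1 alone. Upper-quartile scaling (0.68), a CPM filter (0.63) and library weights (0.75) gave the call as well. Its paralog Ap3s2 went the other way at each stage, from 24 to 44.5 CPM in healthy LSECs to 7.96 to 16.4, 9.58 to 14.1 and 11 to 17.7 CPM, a fall of 1.41 ± 0.22, 1.32 ± 0.18 and 1.12 ± 0.18 on the log2 scale. Ap3m1 rose at all 3 stages, by 1.35 ± 0.21, 1.11 ± 0.21 and 0.66 ± 0.18, and Ap3d1, the large delta subunit, was called at none, with log2 fold changes of -0.08 ± 0.14, -0.02 ± 0.11 and -0.02 ± 0.14.

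In AP-4, Ap4e1, the epsilon subunit, read 1.40 to 7.26 CPM in healthy LSECs (median 2.37), 11.7 to 15.7 CPM in acute injury and 11.1 to 13.2 CPM in fibrosis, and was called higher at 2.19 ± 0.38 and 2.08 ± 0.38. In cirrhosis it read 5.1 to 9.315 CPM, overlapped healthy libraries 5 and 6, and its call at 1.09 ± 0.37 was lost with edgeR (adjusted p = 0.081) and DESeq2 (adjusted p = 0.0517), and without healthy library 2, 3 or 4 or cirrhosis library 2. The replicate block lost it too (0.99). Ap4b1, Ap4m1 and Ap4s1 were called in at most 1 of the 3 comparisons each. Of the 4 AP-5 genes tested, 1 was called higher and 1 lower in acute injury, 1 and 2 in fibrosis, and 0 and 3 in cirrhosis. Of all genes, 73.4%, 70.2% and 51.8% were called in either direction. With library-size scaling the cirrhosis split was 1 and 1. Within AP-5, Ap5s1 and Ap5m1 went apart in acute injury and fibrosis. Ap5s1 read 6.69 to 10.2 CPM in healthy LSECs, 1.45 to 3.78 in acute injury, 2.16 to 2.7 in fibrosis and 3.99 to 5.21 in cirrhosis, a fall of 1.71 ± 0.24, 1.72 ± 0.18 and 0.89 ± 0.16. The cirrhosis call of Ap5s1 was lost with library-size scaling (-0.56). Ap5m1 read 3.56 to 10.4 CPM in healthy LSECs, 12.6 to 19.4 in acute injury and 12.9 to 15.3 in fibrosis, a rise of 1.54 ± 0.26 and 1.35 ± 0.25, and stood at 6.8 to 9.77 in cirrhosis (0.52 ± 0.24, not called). Without healthy libraries 5 and 6 the cirrhosis value was 0.88 and was called, as it was with library-size scaling and without healthy library 5 or 6 alone. It was called also with upper-quartile scaling (0.66), a CPM filter (0.62) and library weights (0.76).

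All 3 dynamins fell in acute injury and fibrosis, where 37.9% and 34.9% of all genes were called lower, and they parted in cirrhosis. There 1 was called higher and 1 lower, beside 27.1% and 24.7% of all genes. Dnm2, the dynamin of most tissues, was by far the best covered, with 3898 to 9413 reads per library. It read 195 to 329 CPM in healthy LSECs (median 281), 147, 145, 144, 135 and 158 CPM in acute injury, 128, 143, 130, 129 and 119 CPM in fibrosis, and 161 to 187 CPM in cirrhosis (median 170.5). No injured library reached the lowest healthy library. The log2 fold changes were -0.84 ± 0.15, -0.98 ± 0.14 and -0.63 ± 0.15, all called, and all 3 lost the call but kept the sign with library-size scaling. The cirrhosis call was also lost with upper-quartile scaling (-0.48), with a CPM filter (-0.53) and without healthy library 4 (-0.57).

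Dnm1, best known from neurons, and Dnm3, known from brain and testis, had far fewer reads. Dnm1 read 2.25 to 5.41 CPM in healthy LSECs (median 3.71), then 0.191, 0.3, 0.389, 0.322 and 0.316 CPM in acute injury, from 7 to 14 reads per library, and 0.746, 0.624, 0.698, 0.517 and 0.321 CPM in fibrosis. Its log2 fold change was -3.48 ± 0.33 (adjusted p = 1.22e-06) and -2.56 ± 0.31 (adjusted p = 1.29e-05). In cirrhosis it read 3.53 to 5.72 CPM (median 3.92), and at 0.23 ± 0.22 it was not called. Dnm3 read 1.34 to 4.71 CPM in healthy LSECs (median 3.49), 0.463, 0.191, 0.25, 0.115 and 0.632 CPM in acute injury, and 0.861, 1.44, 1.93, 0.89 and 0.7 CPM in fibrosis. In cirrhosis it read 4.88 to 12.7 CPM (median 8.25), so that every cirrhosis library was above every healthy library. Its log2 fold changes were -3.33 ± 0.49 (adjusted p = 5.43e-05), -1.37 ± 0.38 (adjusted p = 0.00645) and 1.46 ± 0.32 (adjusted p = 0.00234). Dnm3 was the only member called in opposite directions at different stages against healthy LSECs. Of the stellate cell markers, 8 of 11 were called higher and none lower in cirrhosis. In fibrosis 4 of 10 tested were called higher and 4 lower, and in acute injury 1 of 10 higher and 6 lower. The part of these markers in the levels of Dnm1 and Dnm3 was not tested.

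**Figure D4:**
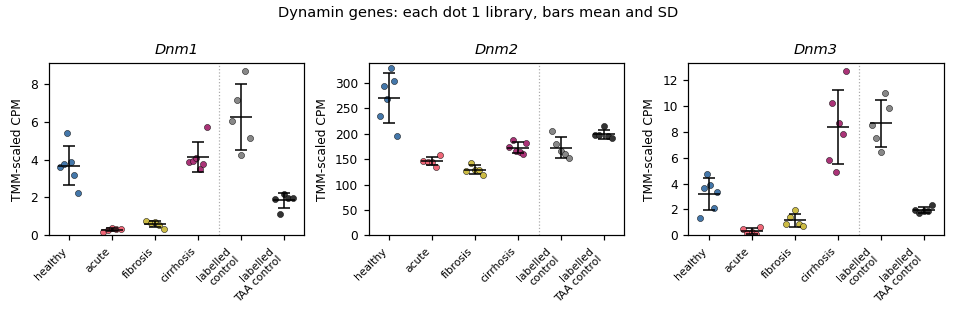
TMM-scaled CPM (linear axes from 0, each with its own range) of the 3 dynamin genes in each library, with the mean and SD of each group. Dnm1 and Dnm3 lie at or below 1.93 CPM in every acute and fibrosis library, and Dnm3 is at 4.88 CPM or more in every cirrhosis library.

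Among the endocytic adaptors and accessory genes, 5 of 10 tested rose and 4 fell in acute injury and in fibrosis, and 3 of 11 rose and 3 fell in cirrhosis, beside 73.4%, 70.2% and 51.8% of all genes called in either direction. Picalm, which recruits clathrin to phosphoinositide-rich membrane and sorts SNARE proteins, rose at every stage. It read 85.8 to 355 CPM in healthy LSECs (median 200.3), 621, 561, 697, 620 and 832 CPM in acute injury, 610, 659, 652, 585 and 583 CPM in fibrosis and 311 to 476 CPM in cirrhosis (median 432). The acute and fibrosis libraries were above all healthy ones, and the cirrhosis libraries overlapped healthy library 6. The log2 fold changes were 1.87 ± 0.34, 1.81 ± 0.33 and 1.17 ± 0.30. Dab2, an adaptor for receptors of the LDL receptor family, overlapped between groups, with 107 to 360 CPM in healthy LSECs and 280 to 509 in acute injury. It was called at 0.90 ± 0.30 in acute injury and at 0.75 ± 0.30 in fibrosis, where edgeR gave an adjusted p of 0.0647 and the call was lost without healthy library 1, 2 or 4 or fibrosis library 12, 13, 15 or 16, and not in cirrhosis at 0.63 ± 0.27. Without healthy libraries 5 and 6 the cirrhosis value of Dab2 was 0.97 and was called. It was called also with library-size (0.97) and upper-quartile scaling (0.77), a CPM filter (0.73) and library weights (0.97). The same held for 1 fit over 22 libraries (0.62), the replicate block (0.63), and without healthy library 5 (0.79) or 6 (0.74) alone.

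Bin1, an amphiphysin-family protein that bends membrane and binds dynamin, rose in acute injury and fibrosis. It read 20.6 to 39 CPM in healthy LSECs (median 34), 169, 158, 142, 125 and 177 CPM in acute injury, 138, 157, 132, 150 and 140 CPM in fibrosis, and 21.4 to 27.6 CPM in cirrhosis. Its log2 fold changes were 2.37 ± 0.20 (adjusted p = 5.76e-07) and 2.31 ± 0.19 (adjusted p = 4.83e-07), and -0.31 ± 0.19 in cirrhosis, which was not called. Cirrhosis libraries were lower than fibrosis libraries by 2.56 ± 0.08 on the log2 scale, that is, the fall from fibrosis to cirrhosis was itself called (adjusted p = 2.6e-10). Without healthy libraries 5 and 6, Bin1 was called lower in cirrhosis too, at -0.60.

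Hip1 and Hip1r, which tie clathrin coats to actin, both fell in acute injury and fibrosis. Hip1 read 257 to 550 CPM in healthy LSECs (median 380), 175, 201, 174, 184 and 124 CPM in acute injury and 84.4, 103, 118, 119 and 114 CPM in fibrosis, a fall of 1.12 ± 0.18 and 1.76 ± 0.18, and 296 to 371 CPM in cirrhosis (-0.20 ± 0.16, not called). Hip1r read 28.5 to 172 CPM in healthy LSECs (median 56), with the highest value in healthy library 1, and 9.13 to 15.9 CPM in acute injury, 17.5 to 25.8 in fibrosis and 22.1 to 33 in cirrhosis. Its log2 fold changes were -2.34 ± 0.42, -1.48 ± 0.40 and -0.99 ± 0.35. The cirrhosis call of Hip1r was lost with library-size scaling (-0.65), and without healthy library 2 or cirrhosis library 3. Of the clathrin coat-associated Necap genes, Necap1 rose in acute injury and fibrosis (0.92 ± 0.12 and 0.70 ± 0.11) and Necap2 fell at all 3 stages (-1.02 ± 0.20, -1.31 ± 0.21 and -1.06 ± 0.20). Eps15, an early scaffold of the coated pit, was called higher in cirrhosis only, at 0.99 ± 0.27, with 104 to 121 CPM against 31.4 to 116 CPM in healthy LSECs. Amph, an amphiphysin first known from nerve terminals, had 16 to 72 reads per library in cirrhosis and 0 to 10 in healthy LSECs and was called higher, and it had no read in any fibrosis library and 2 reads in a single acute library, so no fold is given. Epn3 had at most 10 reads in any library and was not tested.

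Epn1 and Epn2, the epsins, bend membrane and bind ubiquitinated cargo. Epn1 read 185 to 408 CPM in healthy LSECs (median 347.5), 107, 104, 101, 95.5 and 106 CPM in acute injury, 91.9, 93.2, 83.2, 83.3 and 89.35 CPM in fibrosis and 97 to 120 CPM in cirrhosis, with no overlap with healthy LSECs. It fell by 1.57 ± 0.19, 1.75 ± 0.19 and 1.55 ± 0.19 on the log2 scale. Epn2 read 31.9 to 79.5 CPM in healthy LSECs (median 46.9), 114, 108, 104, 118 and 108 CPM in acute injury, 90.7, 103, 104, 96.9 and 108 CPM in fibrosis and 39.2 to 49.2 CPM in cirrhosis. It rose by 1.24 ± 0.20 and 1.14 ± 0.20 and was not called in cirrhosis (-0.11 ± 0.19).

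Ratios between paralogs were compared within each library, where scaling between libraries drops out. The counts are not corrected for gene length, so only changes of a ratio are read. For 5 pairs and 4 comparisons, 20 exact two-sided permutation tests were run and adjusted together. The log2 ratio of Epn2 to Epn1 was -3.37 to -1.75 in healthy LSECs, 0.02 to 0.30 in acute injury, -0.02 to 0.32 in fibrosis and -1.43 to -0.98 in cirrhosis, with no overlap with the healthy libraries. It differed from healthy by 2.81, 2.89 and 1.44 (exact permutation test, adjusted p = 0.00722 each). The log2 ratio of Dnm1 to Dnm2 was -6.58 to -5.63 in healthy LSECs. It was lower by 2.66 in acute injury and by 1.60 in fibrosis and higher by 0.83 in cirrhosis, again without overlap (exact permutation test, adjusted p = 0.00722 each). The log2 ratio of Ap2a1 to Ap2a2 went from -1.05 ± 0.45 (SD, n = 6) in healthy LSECs to -0.01 ± 0.11 (n = 5) in acute injury and 0.07 ± 0.05 (n = 5) in fibrosis (exact permutation test, adjusted p = 0.0108 each). In cirrhosis it was -1.44 ± 0.10 (n = 6), and the difference of -0.39 did not pass (exact permutation test, adjusted p = 0.0837). Cltb to Clta and Hip1r to Hip1 passed in none of the 3 comparisons with healthy LSECs, with adjusted exact p of 0.0533 to 0.913.

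**Figure D5:**
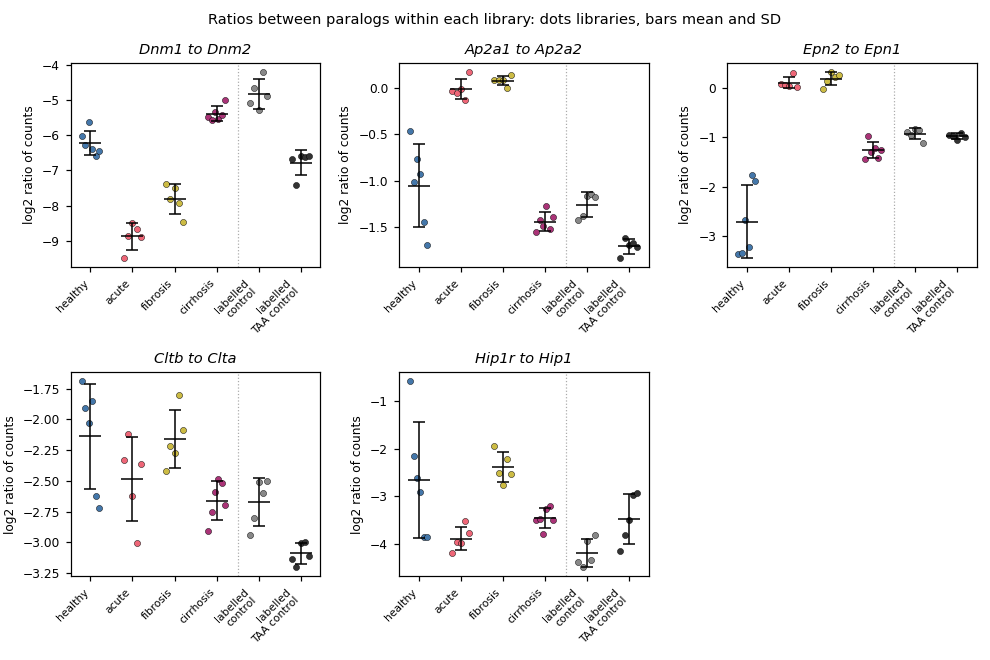
Log2 ratio of the counts of 5 paralog pairs in each library, with the mean and SD of each group. For Epn2 to Epn1 every acute, fibrosis and cirrhosis library lies above every healthy library, and for Dnm1 to Dnm2 the acute and fibrosis libraries lie below and the cirrhosis libraries above the healthy ones.

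Between acute injury and fibrosis few members moved. Of 41 tested, 3 were called, Dnm3 (2.01 ± 0.46, adjusted p = 0.0143) and Hip1r (0.90 ± 0.17, adjusted p = 0.00741) higher and Hip1 (-0.59 ± 0.13, adjusted p = 0.0148) lower in fibrosis, 7.32% beside 11% of all genes (10.2% higher, 0.732% lower). With upper-quartile scaling the split was 2 higher and 0 lower. The groups did not overlap for 6 members, beside 14% of all genes. The call on Hip1 was lost in 6 of 10 fits that each left out a library. Dnm1 stood at 0.96 and was not called. It was called higher in fibrosis with edgeR (1.01), DESeq2 (1.01) and library weights (1.16), and without acute library 8 or fibrosis library 17. Ap1b1 stood at -0.50 ± 0.15 with no overlap between the groups, below the fold threshold.

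Between fibrosis and cirrhosis, 19 of 43 members were called, 10 higher and 9 lower in cirrhosis, 44.2% beside 63.8% of all genes (34.3% higher, 29.5% lower). The groups did not overlap for 26 members, beside 63.3% of all genes. The genes higher in cirrhosis included many that had fallen in fibrosis. Ap1b1 was higher by 2.60 ± 0.14, Ap2a2 by 1.28 ± 0.07, Ap2s1 by 0.88 ± 0.10, Hip1 by 1.61 ± 0.10, Dnm1 by 2.84 ± 0.25, Dnm3 by 2.89 ± 0.39, Clta by 0.74 ± 0.09 and Ap5s1 by 0.88 ± 0.12 on the log2 scale, and the groups did not overlap for any of them. The genes lower in cirrhosis included Bin1 (-2.56 ± 0.08), Epn2 (-1.19 ± 0.07), Ap3s1 (-0.92 ± 0.10), Ap4e1 (-0.91 ± 0.14) and Ap5m1 (-0.78 ± 0.10), which had risen in fibrosis. Both comparisons use the fibrosis libraries, so opposite signs in them are partly built in. Epn1, Ap2a1, Ap2m1 and Picalm were not called between fibrosis and cirrhosis, with log2 differences of 0.26 ± 0.07, -0.24 ± 0.06, -0.13 ± 0.07 and -0.58 ± 0.11. Epn1, Ap2a1 and Picalm missed only the fold threshold (limma-voom adjusted p = 0.00529, 0.00289 and 0.000398), and their CPM ranges did not overlap. Picalm lay at the edge of the call. It was called lower in cirrhosis with library-size scaling (-0.69) and without fibrosis library 12, 16 or 17 or cirrhosis library 3 or 5. The summed LSEC markers were 1774 to 2794 CPM in fibrosis and 14848 to 19186 in cirrhosis. Their part in these differences was not tested.

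In the TAA experiment, members differed less. Between labelled TAA control and labelled control LSECs, 8 of 42 members tested were called, 5 higher and 3 lower in labelled TAA control, 19% beside 27.6% of all genes (12.7% higher, 14.9% lower). The groups did not overlap for 16 members, beside 35.4% of all genes. Ap1b1 read 697, 804, 690, 489 and 584 CPM in labelled control and 1160, 1110, 1139, 944 and 923 CPM in labelled TAA control, a difference of 0.70 ± 0.13 (adjusted p = 0.00152) with no overlap. Ap5s1 (1.14 ± 0.16), Ap4e1 (0.71 ± 0.12), Hip1r (0.72 ± 0.19) and Eps15 (0.59 ± 0.19) were higher too. Dnm1, at 6.03, 7.15, 4.25, 8.7 and 5.13 CPM in labelled control and 1.94, 1.14, 2.21, 1.98 and 1.99 CPM in labelled TAA control, was lower by 1.74 ± 0.26. Dnm3, at 8.53, 7.54, 6.46, 11 and 9.88 CPM against 1.97, 1.7, 1.91, 1.9 and 2.35 CPM, was lower by 2.13 ± 0.20. Amph had 11 to 39 reads per library in labelled control, and in labelled TAA control 7 reads in replicate 13 and none in the other 4, and was called lower. The 3 genes lower in labelled TAA control moved with stellate cell markers, of which 9 of 11 were lower and none higher, with a summed level of 2166 to 5496 CPM in labelled control and 363 to 555 CPM in labelled TAA control. Cholangiocyte markers (3 of 3 tested) and hepatocyte markers (5 of 9, with 1 higher) were lower too, as was 1 of 5 pan-endothelial markers tested. LSEC markers (4 of 11), macrophage markers (1 of 11) and lymphocyte markers (1 of 2 tested) were called higher, with none lower. The part of RNA from any of these cells in the genes called, higher or lower, was not tested.

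None of the 8 tested clathrin and AP-2 genes was called in the TAA experiment. Ap2s1 read 41.7 to 70.7 CPM in labelled control and 53.3 to 71.9 CPM in labelled TAA control (0.27 ± 0.16), and Cltc 939 to 1162 CPM and 960 to 1059 CPM (-0.11 ± 0.07). Ap2a2, Ap2b1 and Cltb did not overlap between the groups, at 0.36 ± 0.09, -0.23 ± 0.06 and -0.23 ± 0.07, below the fold threshold. Picalm was lower by 0.33 ± 0.08 and Dab2 higher by 0.36 ± 0.06, both also below it. Within libraries, the log2 ratios of Dnm1 to Dnm2 (-1.95), Ap2a1 to Ap2a2 (-0.45) and Cltb to Clta (-0.42) were lower in labelled TAA control (exact permutation test, adjusted p = 0.0144 each), and that of Epn2 to Epn1 was -0.93 ± 0.12 and -0.98 ± 0.06 (SD, n = 5 each), a difference of -0.05 (exact permutation test, adjusted p = 0.441).

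Around the coat and adaptor genes, a list of 51 further genes of the pathway was counted, without the cargo receptors. Of 47 tested in acute injury, 23 were called higher and 15 lower, of 48 in fibrosis 21 and 14, and of 49 in cirrhosis 17 and 11, beside 73.4%, 70.2% and 51.8% of all genes called in either direction. Of the cargo adaptors, the beta-arrestins fell furthest: Arrb2 dropped from 72.1 to 142 CPM in healthy LSECs to 9.28 to 12.7 in acute injury and 7.26 to 16.6 in fibrosis, with log2 fold changes of -3.30 and -3.40 and of -0.89 in cirrhosis, and Arrb1 stood at -2.51, -2.81 and -0.90. Of the membrane-bending genes, Sh3gl2, an endophilin, changed by -3.45 and -4.35 in acute injury and fibrosis, and Fnbp1l, an F-BAR protein, by 2.79, 2.76 and 1.62 at the 3 stages. Bmp2k, a kinase related to the AP-2 kinase Aak1, rose at all 3 stages (2.15, 2.37 and 2.01), and Aak1 was called in acute injury only (0.63). Of the uncoating genes, Synj1 (1.07, 0.94 and 0.82) and Inpp5f (0.95, 0.70 and 1.02) rose at each stage. Of the Golgi and endosome coat genes, Aftph (1.75, 1.68 and 0.83) rose and Gga1 (-1.11, -1.29 and -1.32) fell at each stage. Of the actin genes, Actr3 was called higher in acute injury and fibrosis (1.54 and 1.37) and Actr2 in acute injury and cirrhosis (0.63 and 0.83). The initiation genes with the largest changes called, Sgip1 (3.07) and Reps2 (2.52), were called in cirrhosis.

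The cargo receptors are given as values beside the coat. Tfrc, the transferrin receptor and the classic cargo of AP-2 pits, read 7.73 to 29.4 CPM in healthy LSECs, 258 to 331 in acute injury, 195 to 244 in fibrosis and 19 to 31.7 in cirrhosis, with log2 fold changes of 4.37, 4.03 and 0.80, all called. The scavenger receptors went the other way in acute injury and fibrosis: Stab1 changed by -5.04 and -4.82, Stab2 by -4.52 and -4.18, and Mrc1 by -3.71 and -4.26. In cirrhosis Stab1 was called lower (-2.04), while Stab2 (0.02) and Mrc1 (-0.08) were not called. In all, 6 of 8 receptors fell and 1 rose in acute injury and in fibrosis, and 2 fell and 2 rose in cirrhosis, where 37.9%, 34.9% and 24.7% of all genes fell and 35.5%, 35.3% and 27.1% rose. Of the 51 pathway genes, which leave out these receptors, 49 were tested in the TAA experiment. Of these, 6 were called higher and 9 lower in labelled TAA control, beside 12.7% and 14.9% of all genes.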

How the data were processed

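The authors checked the reads with FastQC, trimmed them with Trim Galore, mapped them to Rnor_6.0 with STAR and estimated gene levels with RSEM (versions not given in the sources used here), and deposited 1 table of RSEM expected counts per library, which split shared reads between paralogs. LSECs came from perfused, digested livers by a density gradient, and the libraries were poly(A)-selected and strand-specific. Expected counts were rounded here. Genes were filtered with filterByExpr, scaled by TMM (edgeR 4.0.16) and fitted with limma-voom (limma 3.58.1, R 4.3.3) on the groups compared only, with Benjamini-Hochberg adjustment over all genes and a call at adjusted p below 0.05 and a fold change above 1.5. Fold changes and SE are fitted values, while CPM are TMM-scaled counts (CPM). Paralog ratios are log2((count + 0.5)/(count + 0.5)) and were compared by exact two-sided permutation tests.

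Alternatives were edgeR's quasi-likelihood test, DESeq2 1.42.0, other scalings and filters, library weights, 1 fit over 22 libraries, a replicate block and each library left out. The fits were tested on simulated data. Labels do not say that replicates of a group are separate rats beyond their numbers, so p-values measure the spread between these libraries. Those of the TAA experiment count labelled TAA control 14 and 15, with their similar counts, as separate libraries. The differences there in Dnm1 to Dnm2, Ap2a1 to Ap2a2 and Cltb to Clta also passed with any 1 library left out. The members and lists were chosen with earlier results of these data known. Values are given for Cltc, Clta, Cltb, the AP-2 genes, the dynamins, Dab2 and Picalm, and for the 10 other members with the largest called change against healthy LSECs, a mean of at least 1 CPM and no overlap. Other members with values (such as Ap1s1, Ap1m1, Ap3s2, Epn2, Necap1, Necap2, Eps15 and Amph) are examples of the rest, chosen after their values were seen, and are outside the tally of alternatives. The pathway genes named are the 2 with the largest called change per role; Tfrc, Stab1, Stab2 and Mrc1 were chosen after their values were seen. Hspa8 and Cttn, each with more than 1 row, were left out. Promoter windows are the 250 bases before the start in RefSeq, assembly GRCr8. For members the first entry was taken where a symbol had several, while the 33469 windows hold every entry of full length. No genome of the files' build was used.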

Additional observations from a re-analysis of the deposited data

Results flagged for a closer look

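In 168 groups of 5 or 6 libraries, that is the named genes and paralog ratios in each group, 6 had a library far from the rest by Dixon's test, where chance alone gives about 1 in 20. Ap2a1 was lowest in healthy library 6, at 127 CPM against 209.6 to 282 in the others, with a gap of 0.629 of the range; gaps of genes were taken on the log2(CPM + 0.5) scale. Dnm1 was highest in cirrhosis library 6, at 5.72 CPM against 3.53 to 4.09 (gap 0.699), and lowest in labelled TAA control 12, at 1.14 CPM against 1.94 to 2.21 (gap 0.791). The same library had the lowest log2 ratio of Dnm1 to Dnm2 (gap 0.901). Dnm2 was highest in labelled TAA control 13, at 215 CPM against 193 to 198 (gap 0.753). The log2 ratio of Epn2 to Epn1 was highest in acute library 4 (gap 0.754).

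Dnm3 and the ratio of Dnm1 to Dnm2 went opposite ways against healthy LSECs at different stages. For Dnm3 the cirrhosis and fibrosis libraries differed by 2.89 on the log2 scale, which limma-voom called (adjusted p = 2.76e-05), and the changes from healthy in cirrhosis and acute injury were 4.79 apart, a difference that was not tested. For the log2 ratio of Dnm1 to Dnm2 the changes in cirrhosis and in acute injury were 3.49 apart and those in cirrhosis and in fibrosis 2.43 apart, and neither difference was tested. The healthy libraries are shared by these comparisons.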

How the results depend on the processing

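With library-size scaling, members called lower fell to 12 in fibrosis and 9 in cirrhosis against healthy LSECs. Between acute injury and fibrosis, members called lower were 7 without a fold threshold, 0 with upper-quartile scaling and 0 with a CPM filter (1 higher), and members called higher were 1 in 1 fit over 22 libraries. Without a fold threshold, cirrhosis against fibrosis gave 19 higher and 15 lower, and labelled TAA control against labelled control 13 higher and 8 lower. Whether the replicate numbers pair libraries was not tested. Correlations of same-numbered libraries were 0.0297 to 0.198 for acute injury and -0.242 to 0.288 for cirrhosis against healthy. Acute libraries 2 and 4 correlated best with the healthy library of their own number, while acute libraries 1 and 3 and all cirrhosis libraries did not. These correlations cannot settle whether same-numbered libraries share a day or batch. With the number as a block, the log2 ratios of Dnm1 to Dnm2 were -2.79 in acute injury and 0.83 in cirrhosis, that of Ap2a1 to Ap2a2 0.74 in acute injury, and those of Epn2 to Epn1 3.28 and 1.44, each with an adjusted exact permutation p of 0.139 (raw 0.125, the smallest that 4 pairs allow, in acute injury, and 0.0312 with 6 pairs in cirrhosis); the block moved no count of calls by over 1.5 times. Leaving out 1 library at a time, the difference in Ap2a1 to Ap2a2 in cirrhosis ran from -0.52 to -0.27 (passing without healthy 6), Cltb to Clta in cirrhosis from -0.64 to -0.43 (passing without healthy 5 or 6), Hip1r to Hip1 in acute injury from -1.47 to -0.81 (passing without healthy 5 or 6) and in the TAA experiment from 0.59 to 0.89 (passing without labelled TAA control 10), and members lower in fibrosis against acute injury from 0 to 1. Without healthy libraries 5 and 6, an alternative chosen after seeing the data, members called were 15 higher and 17 lower in acute injury, 15 and 21 in fibrosis, and 13 and 19 in cirrhosis. Over the 23 named genes, 2967 alternative values stayed on their side of the call, 89 gained a call, 47 lost it, and no called value changed sign. Dnm1, Dnm3 and Amph rest on few reads. The causes of these changes were not tested.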
